A study of Rattus norvegicus with 4 samples.

Results

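The interferon response and sensing genes were followed as a list of 45 genes, made up of the sensors of foreign RNA, the factors that carry the signal to the nucleus, the interferon receptors and the genes that interferon induces. The members were the rows of the count files whose gene name is on the list. Of the 45 names, 36 were found among the 25810 genes of the files, and Tmem173, Ifnar2, Tyk2, Gbp2, Bst2, Eif2ak2, Ifi44, Ifi44l and Parp14 were not analysed here. RNA was sequenced from 2 clones of PC12, a line derived from a rat pheochromocytoma, in 2 libraries per clone. The wtPC12 clone has low levels of REST, a repressor of neural genes, and the hrPC12 clone, known earlier as PC12-27, has high levels. The high-REST state arose spontaneously and was studied in 1 clone, and an effect of REST cannot be told apart from whatever else separates the clones. The labels name no interferon, virus or other treatment for either clone. They also do not say whether the libraries of a clone came from separate cultures, so p values may measure technical spread only.

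Foreign RNA inside a cell is bound by helicases of the RIG-I family, and RNA taken up into endosomes by Toll-like receptors. The adaptors of these sensors activate interferon regulatory factors, which switch on the genes of type I interferons. Secreted interferon binds its receptors, and the kinases Jak1 and Tyk2 then activate STAT proteins, which with Irf9 bind the interferon-stimulated response element (ISRE) in the promoters of the induced genes. Several sensors and Irf7 are themselves induced by interferon, so that the pathway feeds back on itself, and Usp18 and Socs1 restrain it.

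Of the 36 genes, 34 passed the filter of the study (reads present in both clones and 5 or more normalized counts on average). In hrPC12, 14 of them rose and 4 fell with an adjusted p value under 0.05 (quasi-likelihood test of edgeR, adjusted by Benjamini-Hochberg over all 13726 tested genes), where 16.1% of all tested genes rose and 16.3% fell by the same rule. Past both thresholds of the study, an adjusted p value under 0.01 and a log2 fold change (log2 FC, hrPC12/wtPC12) beyond 2 in either direction, 9 rose, against 4.84% of all tested genes. None was lower past both thresholds, with edgeR or DESeq2, where 5.46% of all tested genes were with edgeR. On that side 6 of the 34 had an unadjusted p under 0.05 from edgeR, beside 3111 of all 13726 tested genes. Without wtPC12 replicate 2, 0 of the 34 and 0 of all 13590 genes tested were past both thresholds. The number that fell was 2 without hrPC12 replicate 1 and 2 without hrPC12 replicate 2. The median log2 FC was 0.998 over the 34 genes and 0.06 over all tested genes. In 22 of the 34 genes both hrPC12 libraries lay above both wtPC12 libraries, and in 6 both lay below, where the shares over all tested genes were 37.9% and 35.6%. Of the 14 that rose, 9 were RNA sensors or antiviral effectors, while the receptors fell and the adaptors and most of the regulatory factors did not pass the test.

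**Figure D1:**
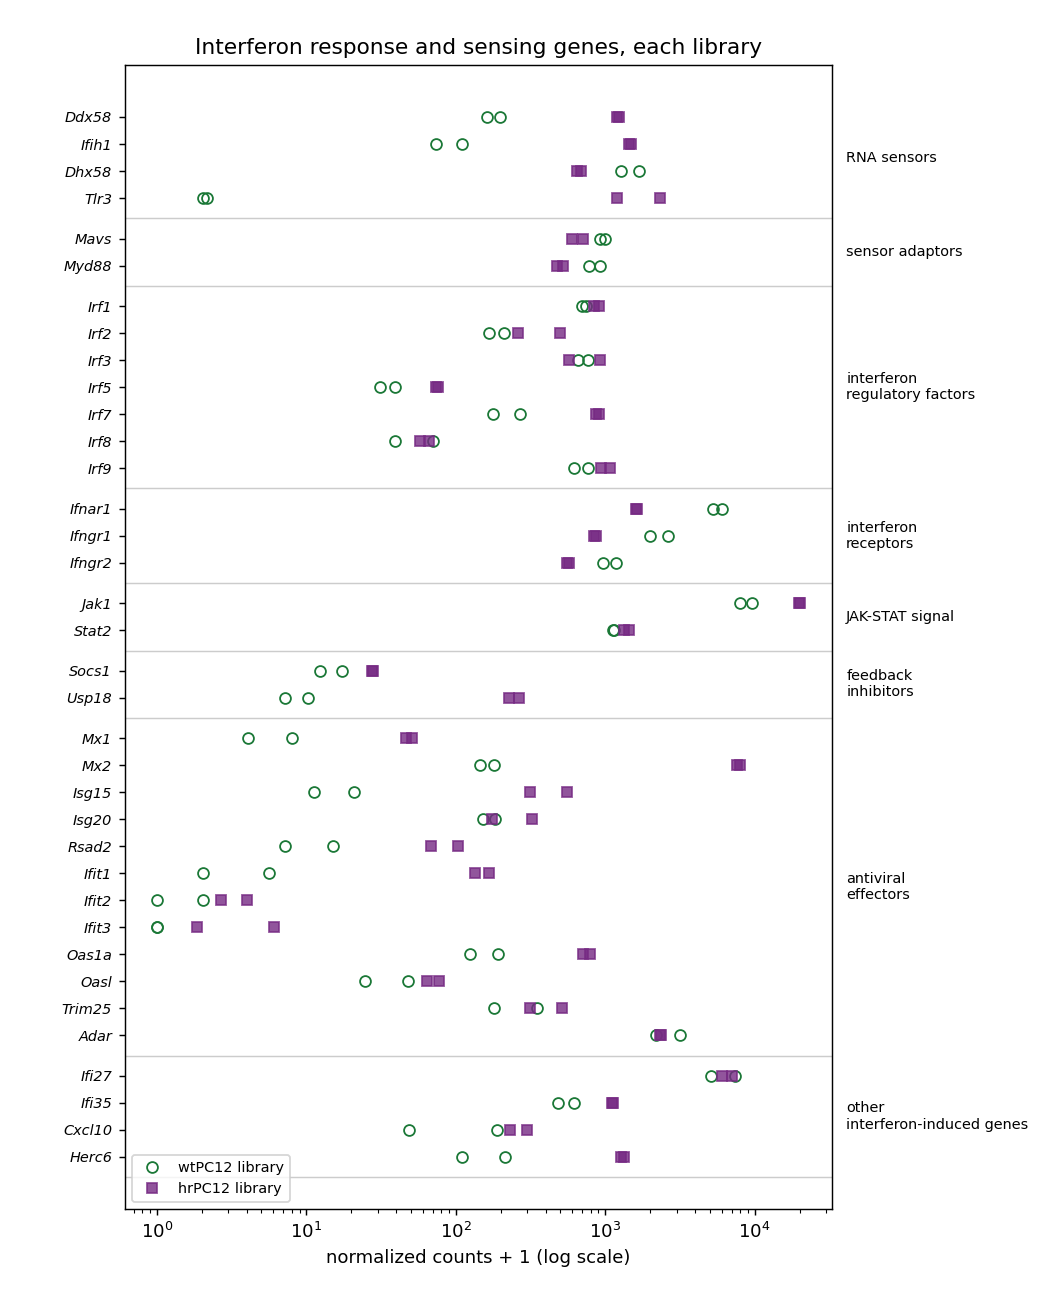
Normalized counts plus 1 (log scale) of the 36 genes found in the files, by role, with 1 open circle for each wtPC12 library and 1 filled square for each hrPC12 library. Mx2, Tlr3, Ifih1 and Usp18 are widely separated between the clones, whereas the points of Irf3, Adar and Ifi27 overlap.

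The libraries held 20975027 to 27246502 reads on genes. Rest itself had 43.0 and 132 normalized counts in the wtPC12 libraries and 964 and 915 in the hrPC12 libraries (log2 FC 3.42, standard error 0.57, adjusted p = 0.0115). Leaving out wtPC12 replicate 1 gave a log2 FC of 2.80 for Rest, and leaving out replicate 2 gave 4.44. Chromaffin markers were present in both clones, with sums over the 7 of 9 markers found of 814643 to 952888 normalized counts in wtPC12 and 45708 to 50282 in hrPC12. Sums over 12 white blood cell markers were 60.8 to 74.4 in wtPC12 and 469.8 to 538 in hrPC12, most of it Cd14, while 7 of the 12 had at most 3 reads in each hrPC12 library. Of this list Cd14 (log2 FC 5.17, adjusted p = 0.000996), Cd68 (log2 FC 1.63, adjusted p = 0.0283) and Spi1 (log2 FC 2.36, adjusted p = 0.0338) rose in hrPC12. The defining marker Ptprc (CD45) had 1 read in hrPC12 replicate 1 and 0 in the other 3 libraries. Sums over 7 fibroblast markers were 118 to 152 in wtPC12 and 84306 to 88696 in hrPC12, nearly all of the latter Col3a1. Of this list Col3a1 (log2 FC 9.83, adjusted p = 0.000243), Col1a1 (log2 FC 4.71, adjusted p = 0.00872) and Col1a2 (log2 FC 6.87, adjusted p = 0.00540) rose, Dcn fell (log2 FC −3.10, adjusted p = 0.0182) and Pdgfra did not pass the test. Postn and Lum, not tested, had no read in wtPC12, and 51 and 44 reads (Postn) and 22 and 23 reads (Lum) in hrPC12. Sums over the 4 of 5 endothelial markers found were 29.1 to 34.0 in wtPC12 and 61.7 to 70.3 in hrPC12. The part of these other markers in the results was not tested, and in bulk RNA fewer cells of a type and less RNA per cell cannot be told apart. In hrPC12 replicate 1 the counts of some runs of neighbouring genes were higher than in replicate 2, which touches Tlr3, Irf2, Isg15, Rsad2 and Trim25.

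The sensors held the largest difference of the list in every setting tried. Tlr3, the endosomal receptor for double-stranded RNA, had 1 read in each wtPC12 library, and 2757 and 1188 reads in hrPC12. On the normalized scale these were 1.16 and 1.03 in wtPC12 and 2334 and 1202 in hrPC12 (log2 FC 10.50, standard error 0.63, adjusted p = 0.000699). The ratio of summed reads per library size was 1664, with a 95% interval from 460.4 to 13746 that covers counting error only. Both hrPC12 libraries were far above wtPC12, and without hrPC12 replicate 1, the higher of the pair, the log2 FC was 9.94. Ifih1, which codes for the cytosolic RNA helicase MDA5, rose from 72.1 and 109 normalized counts in wtPC12 to 1451 and 1483 in hrPC12 (log2 FC 4.01, standard error 0.30, adjusted p = 0.00115). Ddx58, the gene of RIG-I, had 161 and 196 in wtPC12 and 1194 and 1244 in hrPC12 (log2 FC 2.77, standard error 0.24, adjusted p = 0.00162), a 6.83-fold rise. The hrPC12 libraries were close to each other in both helicase genes and far from either wtPC12 library. Dhx58 went the other way. Its product LGP2 belongs to the same helicase family but lacks the domains that pass the signal on, and it had 1675 and 1276 in wtPC12 and 650.2 and 684 in hrPC12 (log2 FC −1.15, standard error 0.23, adjusted p = 0.0196). Its adjusted p was 0.0684 without hrPC12 replicate 1 and 0.0527 without hrPC12 replicate 2, where the log2 FC was −1.11 and −1.23.

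The adaptors of the sensors were below the wtPC12 range in each hrPC12 library, but neither passed the test. Mavs, the mitochondrial adaptor of RIG-I and MDA5, had 919 and 993 normalized counts in wtPC12 and 599 and 704 in hrPC12 (log2 FC −0.55, standard error 0.21, adjusted p = 0.105). Myd88, the adaptor of most Toll-like receptors other than Tlr3, had 922 and 779.8 in wtPC12 and 474 and 520.1 in hrPC12 (log2 FC −0.78, standard error 0.22, adjusted p = 0.0527). With edgeR's filterByExpr, with DESeq2 and with the legacy option of edgeR off, the adjusted p of Myd88 was 0.0494, 0.0220 and 0.0482, and it was 0.0427 without wtPC12 replicate 2.

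Among the interferon regulatory factors Irf7 rose and the other 6 did not pass the test. Irf7, the factor that sustains type I interferon transcription, had 269.9 and 176 normalized counts in wtPC12 and 870.3 and 904 in hrPC12 (log2 FC 1.99, standard error 0.30, adjusted p = 0.00869). This was a 3.98-fold rise that lay just inside the log2 FC threshold. It was past that threshold with library totals alone (2.07), without wtPC12 replicate 1 (2.30) and without hrPC12 replicate 1 (2.02). Irf3, which is activated by phosphorylation directly downstream of the sensors, had 769 and 658 in wtPC12 and 919 and 572 in hrPC12 (log2 FC 0.06, standard error 0.30, adjusted p = 0.880), and the clones overlapped. Irf9, the DNA-binding partner of the STAT proteins, had 767 and 617 in wtPC12 and 942 and 1079 in hrPC12 (log2 FC 0.55, standard error 0.23, adjusted p = 0.123), and Irf1, induced mainly by interferon gamma, had 746 and 700.5 in wtPC12 and 843 and 906 in hrPC12 (log2 FC 0.27, standard error 0.20, adjusted p = 0.332). In both genes hrPC12 lay above wtPC12 by a margin that the test did not separate from the spread between libraries. The repressor Irf2 had 166 and 209 in wtPC12 and 494 and 259 in hrPC12 (log2 FC 1.005, adjusted p = 0.112), a difference that was 0.46 without hrPC12 replicate 1. Irf5 and Irf8, factors best known from white blood cells, had few reads, at 29.9 to 74.9 normalized counts over the 4 libraries for Irf5 (log2 FC 1.11, adjusted p = 0.0709) and 38.4 to 69.0 for Irf8 (log2 FC 0.17, adjusted p = 0.770).

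All 3 interferon receptor genes found in the files fell in hrPC12, none by a log2 FC past the threshold. Ifnar1, a chain of the type I interferon receptor, had 6036 and 5225 normalized counts in wtPC12 and 1620.3 and 1609 in hrPC12 (log2 FC −1.80, standard error 0.17, adjusted p = 0.00226), 3.49-fold lower. The ligand-binding chain of the interferon gamma receptor, Ifngr1, fell from 2614 and 1994 in wtPC12 to 842 and 861 in hrPC12 (log2 FC −1.44, standard error 0.22, adjusted p = 0.00888). Its signal-transducing partner Ifngr2 had 1178 and 962 in wtPC12 and 556 and 574 in hrPC12 (log2 FC −0.92, standard error 0.22, adjusted p = 0.0317). The hrPC12 libraries were nearly equal in each receptor gene and below both wtPC12 libraries. The call of Ifngr2 was lost when wtPC12 replicate 1, hrPC12 replicate 1 or hrPC12 replicate 2 was left out, with adjusted p values of 0.0574, 0.180 and 0.112 from edgeR, and log2 FC of −0.80, −0.90 and −0.99.

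Downstream of the receptors, Jak1, a kinase that both types of receptor use, rose from 7972 and 9608 normalized counts in wtPC12 to 20054 and 19896 in hrPC12 (log2 FC 1.18, standard error 0.19, adjusted p = 0.0105), 2.27-fold. Stat2, the STAT protein specific to type I and type III interferon, had 1118 and 1141 in wtPC12 and 1342 and 1447 in hrPC12 (log2 FC 0.30, standard error 0.19, adjusted p = 0.251), a difference that did not pass the test. Of the inhibitors, Usp18, which removes Isg15 from proteins and blocks the type I receptor, rose from 9.31 and 6.18 in wtPC12 to 224 and 265 in hrPC12 (log2 FC 4.97, standard error 0.41, adjusted p = 0.00145). Socs1, an inhibitor of JAK kinases, was near the lower end of the range tested, with 16.3 and 11.3 in wtPC12 and 27.1 and 26.3 in hrPC12 (log2 FC 0.95, standard error 0.45, adjusted p = 0.159).

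The effectors held 4 of the 9 genes that rose past both thresholds. Mx2, which codes for a dynamin-like antiviral GTPase, rose from 178 and 144 normalized counts in wtPC12 to 7638 and 7976 in hrPC12 (log2 FC 5.60, standard error 0.22, adjusted p = 0.000285), 48.5-fold. The related Mx1 had few reads, with 6.98 and 3.09 in wtPC12 and 45.7 and 49.6 in hrPC12 (log2 FC 3.23, standard error 0.55, adjusted p = 0.0123). Both libraries of hrPC12 were above both of wtPC12 in either gene, although reads that fit more than 1 position were not counted, and near-identical stretches of paralogs can lower their counts. Isg15, a ubiquitin-like protein that is attached to other proteins, had 19.8 and 10.3 in wtPC12 and 557 and 313 in hrPC12 (log2 FC 4.85, standard error 0.53, adjusted p = 0.00334), and a log2 FC of 4.38 without hrPC12 replicate 1. Ifit1, whose product binds viral RNA that lacks the host's cap methylation, had 4.65 and 1.03 in wtPC12 and 166 and 134 in hrPC12 (log2 FC 5.70, standard error 0.63, adjusted p = 0.00348). Its wtPC12 values stand for 4 reads and 1 read, and leaving out wtPC12 replicate 1 gave 6.996 and leaving out replicate 2 gave 4.97 for its log2 FC. Oas1a, a synthetase of the oligoadenylates that activate RNase L, rose from 192 and 124 in wtPC12 to 709 and 789 in hrPC12 (log2 FC 2.25, standard error 0.32, adjusted p = 0.00717), with a log2 FC of 1.96, inside the threshold, without wtPC12 replicate 2.

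Rsad2, the gene of viperin, had 14.0 and 6.18 normalized counts in wtPC12 and 102 and 66.8 in hrPC12 (log2 FC 3.07, standard error 0.56, adjusted p = 0.0152). Like Mx1, it was beyond the log2 FC threshold and missed the adjusted p threshold of 0.01. Mx1 passed both thresholds in 7 of the 11 settings and Rsad2 in 6, and without wtPC12 replicate 2 the adjusted p of Rsad2 was 0.0572. With wtPC12 replicate 1 left out the log2 FC was 3.87 for Mx1 and 3.72 for Rsad2, and with wtPC12 replicate 2 left out 2.75 and 2.59. The other 4 effector genes tested did not pass. Adar, which edits double-stranded RNA, had 2174 and 3182 in wtPC12 and 2354 and 2317 in hrPC12 (log2 FC −0.20, standard error 0.23, adjusted p = 0.536). The exonuclease gene Isg20 had 181 and 150.4 in wtPC12 and 320.0 and 174 in hrPC12 (log2 FC 0.58, adjusted p = 0.295), and Trim25, the ubiquitin ligase that activates RIG-I, had 178 and 350.2 in wtPC12 and 510.5 and 315 in hrPC12 (log2 FC 0.64, adjusted p = 0.303). In Adar, Isg20 and Trim25 the clones overlapped. Oasl had 46.5 and 23.7 in wtPC12 and 63.5 and 75.9 in hrPC12 (log2 FC 0.99, adjusted p = 0.156).

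Ifit2 and Ifit3, relatives of Ifit1, were below the filter and were tested in the fit of every gene with a read only. Ifit2 had 0 reads in wtPC12 replicate 1, 1 in replicate 2, and 2 and 3 reads in hrPC12, none above the floor of 3 reads. Ifit3 had no read in wtPC12, and 1 and 5 reads in hrPC12. At this depth, 3 reads correspond to 2.54 to 3.49 normalized counts, and no difference was detectable in either gene (adjusted p = 0.417 for Ifit2 and 0.194 for Ifit3 in that fit).

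The 4 remaining induced genes were divided. Herc6, which codes for a ligase that attaches Isg15 in rodents, rose from 109 and 213 normalized counts in wtPC12 to 1327 and 1273 in hrPC12 (log2 FC 3.01, standard error 0.38, adjusted p = 0.00530). Ifi35 rose from 613 and 480.0 in wtPC12 to 1108 and 1121 in hrPC12 (log2 FC 1.03, standard error 0.23, adjusted p = 0.0261), 2.04-fold, a call that was lost without hrPC12 replicate 1 (log2 FC 1.04, adjusted p = 0.0896) or replicate 2 (log2 FC 0.98, adjusted p = 0.103). Ifi27, with the most reads of this group, had 7396 and 5108 in wtPC12 and 6069 and 6995 in hrPC12 (log2 FC 0.06, standard error 0.24, adjusted p = 0.849), and the clones overlapped. Cxcl10, a chemokine that attracts T cells, had 187 and 47.4 in wtPC12 and 231 and 298 in hrPC12 (log2 FC 1.18, standard error 0.66, adjusted p = 0.219). Its wtPC12 libraries differed from each other by more than wtPC12 replicate 1 differed from hrPC12, and its log2 FC was 2.45 with that library left out (adjusted p = 0.0170) and 0.50 with wtPC12 replicate 2 left out (adjusted p = 0.253).

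**Figure D2:**
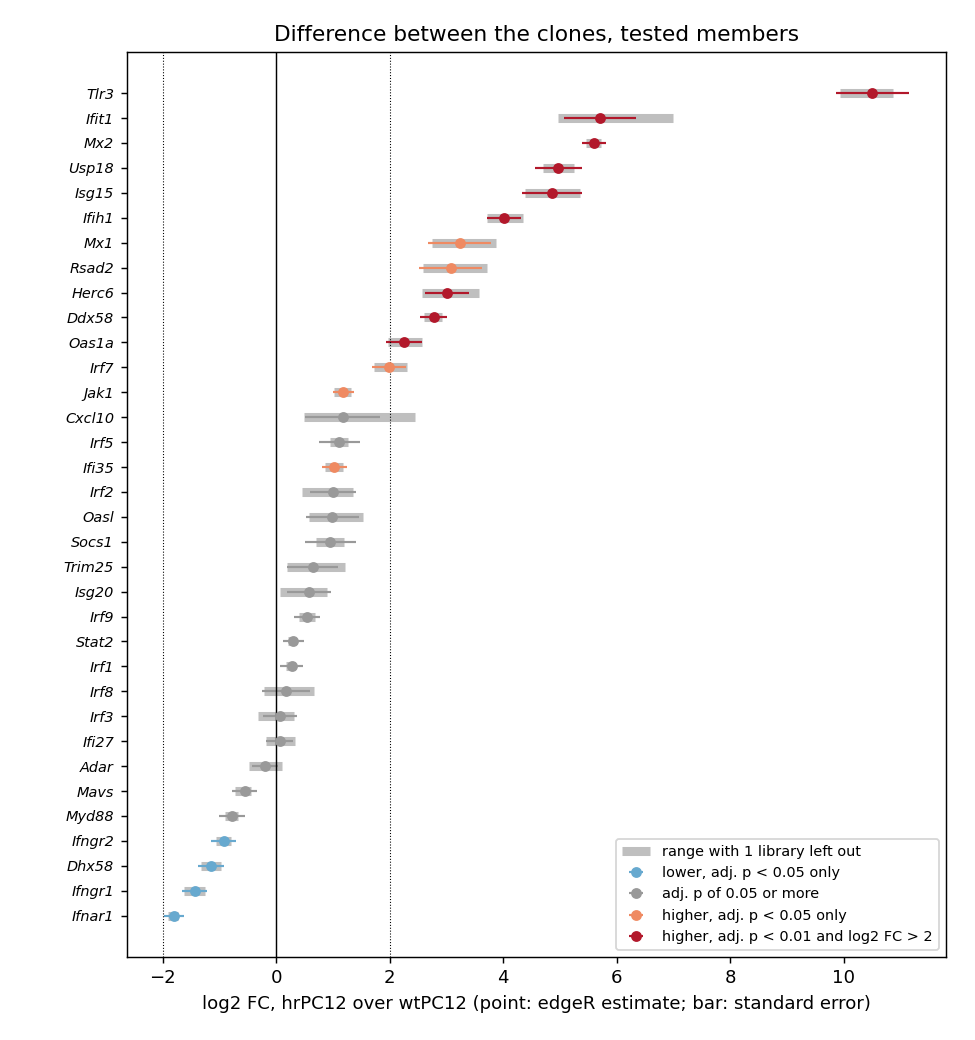
Log2 FC (hrPC12/wtPC12) of the 34 tested genes as fitted by edgeR, with the standard error as a thin bar and the range over the fits with 1 library left out as a grey band. Dotted lines mark a log2 FC of −2 and 2. Values run from −1.80 for Ifnar1 to 10.50 for Tlr3, and the bands of Irf3, Irf8, Adar and Ifi27 cross 0.

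Promoter sequences are shown to set the ISRE letters beside the change in counts, for the 4 genes that rose and held them and for 2 of the 5 that held them and did not pass the test. RefSeq promoters (rat assembly GRCr8, 250 bases before the gene start and 50 from it on) were matched by symbol for 26 of the 36 genes, and Ddx58, Dhx58, Irf2, Jak1, Usp18, Mx2, Isg15, Ifit1, Ifit2 and Adar had no entry. The core of the ISRE, taken as GAAA followed by any 2 bases and a further GAAA, was searched on both strands. This motif was present in 3.92% of all 33469 promoters and in 10 of the 26. Of the genes that rose, 4 of 8 held a match, of those that passed neither test 5 of 14, and of those that fell 0 of 3, so a match was found both in genes that rose and in genes that did not. For lack of an entry, these counts leave out Jak1, which rose, and Ddx58, Usp18, Mx2, Isg15 and Ifit1, which rose past both thresholds. Windows of 30 bases around the matches of Ifih1, Irf7, Rsad2, Oas1a, Isg20 and Ifi27 are printed below in the direction of the gene, with the matching letters in capitals. A match on the opposite strand appears as TTTC, any 2 bases and a further TTTC. The first 4 belong to genes that rose and the other 3 to Isg20 and Ifi27, which did not pass the test.
Ifih1, chr3:67684008-67684037, minus strand: gaagagaatcGAAACAGAAAccgatgtgtg
Irf7, chr1:205800073-205800102, minus strand: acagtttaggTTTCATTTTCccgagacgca
Rsad2, chr6:48788248-48788277, minus strand: ctggttcaacTTTCATTTTCagaaaacaga
Oas1a, chr12:41330418-41330447, plus strand: ctctcggGAAATGGAAACTGAAAatcttgt
Isg20, chr1:142239957-142239986, plus strand: taatgaaccaGAAACTGAAActaaaacggc
Ifi27, chr6:128355133-128355162, plus strand: gagagcagggGAAAAGGAAAcctctccttg
Ifi27, chr6:128355218-128355247, plus strand: gagagctgggGAAATGGAAActtacctcat
In Oas1a, 2 overlapping matches form the capitals. The first matching base lay 59 bases before the gene start in Ifih1, 69 in Irf7, 147 in Rsad2, 41 in Oas1a and 92 in Isg20. Ifi27 held 2 separate matches, 169 and 84 bases before the start. The remaining matches, not printed, were in Myd88, Socs1 and Cxcl10, which did not pass the test, and in Ifit3. The letters TTCNNNGAA, the core of the site bound by STAT dimers after interferon gamma, read the same on both strands and were present in 8.87% of all promoters and in 6 of the 26, of which Oas1a was the gene that rose.

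The 250 bases before the start are shown whole for the sensor gene with the largest difference, Tlr3, which held neither set of letters, and for Ifih1, whose match is in capitals.
Tlr3, chr16:53554666-53554915, plus strand: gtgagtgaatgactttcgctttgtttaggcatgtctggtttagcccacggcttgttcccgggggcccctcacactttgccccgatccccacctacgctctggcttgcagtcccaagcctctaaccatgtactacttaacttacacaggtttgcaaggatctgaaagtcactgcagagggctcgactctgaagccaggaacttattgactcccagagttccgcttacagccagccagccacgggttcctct
Ifih1, chr3:67683969-67684218, minus strand: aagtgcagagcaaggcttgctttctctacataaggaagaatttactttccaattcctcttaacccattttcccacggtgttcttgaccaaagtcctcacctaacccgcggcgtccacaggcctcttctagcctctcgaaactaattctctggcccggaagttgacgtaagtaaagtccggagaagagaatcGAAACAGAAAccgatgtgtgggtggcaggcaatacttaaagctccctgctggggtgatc
A match describes the sequence only and does not show a bound site.

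Transcripts of interferon itself were at 0 or 1 read. Of 10 interferon genes in a further list of the pathway, 6 were found in the files. Ifnb1, Ifna1, Ifna2, Ifnk and Il28b had no read in any library, and Ifng had 1 read, in hrPC12 replicate 1. A count of 0 allows up to 3 reads, or 2.54 to 3.49 normalized counts, for counting error only.

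Besides the ligands, this list held 25 genes of sensing and signaling and 42 other induced genes. In all, 58 of its 77 genes were found and 41 tested. With an adjusted p value under 0.05 from edgeR, 22 rose and 2 fell, beside 16.1% and 16.3% of all tested genes. Of the induced genes 21 of 28 rose and 1 fell, and of the sensing and signaling genes 1 of 13 rose and 1 fell. Past both thresholds 9 rose, all of them induced genes, and 0 fell, beside 4.84% and 5.46% of all tested genes. DESeq2 also called 0 lower. On the lower side 4 of the 41 had an unadjusted p under 0.05 from edgeR, beside 3111 of all 13726 tested genes. The median log2 FC over the 41 genes was 1.16. Without wtPC12 replicate 2, no gene of this list and none of all tested genes was past both thresholds. The sensing gene that rose was Ticam2, an adaptor of Tlr4 (log2 FC 1.75, standard error 0.40, adjusted p = 0.0283).

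The guanylate-binding protein gene Gbp5 had 1.16 and 0 normalized counts in wtPC12 and 394 and 210.5 in hrPC12 (log2 FC 8.81, standard error 0.84, adjusted p = 0.00218), and its relative Gbp4 had 1.16 and 3.09 in wtPC12 and 139 and 87.0 in hrPC12 (log2 FC 5.62, standard error 0.62, adjusted p = 0.00346). Ifitm3, which codes for a membrane protein that blocks virus entry, rose from 0 and 1.03 in wtPC12 to 107 and 109 in hrPC12 (log2 FC 7.34, standard error 0.72, adjusted p = 0.00246). Rtp4 had 1.16 and 2.06 in wtPC12 and 218 and 277 in hrPC12 (log2 FC 7.14, standard error 0.50, adjusted p = 0.000974). In these 4 genes wtPC12 held at most 3 reads per library, so that the fitted values depend on very few reads. The ratio of summed reads per library size, with its 95% counting interval, was 569 (102 to 22493) for Gbp5, 52.7 (20.3 to 195) for Gbp4, 197 (35.1 to 7831) for Ifitm3 and 149 (50.8 to 726) for Rtp4. Sp100, a component of nuclear bodies, rose from 4.65 and 6.18 in wtPC12 to 903 and 755 in hrPC12 (log2 FC 7.22, standard error 0.37, adjusted p = 0.000467). The synthetase-like gene Oasl2 had 10.5 and 9.27 in wtPC12 and 217 and 213 in hrPC12 (log2 FC 4.43, standard error 0.36, adjusted p = 0.00142), and Oas1b had 113 and 74.2 in wtPC12 and 698 and 719 in hrPC12 (log2 FC 2.92, standard error 0.32, adjusted p = 0.00334). Dtx3l, a ubiquitin ligase gene, had 269.9 and 313 in wtPC12 and 1833 and 1944 in hrPC12 (log2 FC 2.69, standard error 0.21, adjusted p = 0.00129), and the GTPase gene Irgm had 128 and 119 in wtPC12 and 526 and 559 in hrPC12 (log2 FC 2.13, standard error 0.26, adjusted p = 0.00451). The 2 genes that fell were Il10rb, a receptor chain that type III interferon shares with interleukin 10 (log2 FC −1.24, standard error 0.24, adjusted p = 0.0173), and Ifi30, a lysosomal thiol reductase gene (log2 FC −1.08, standard error 0.27, adjusted p = 0.0372). Ticam2, Il10rb and Ifi30 were picked out after their values were seen.

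**Figure D3:**
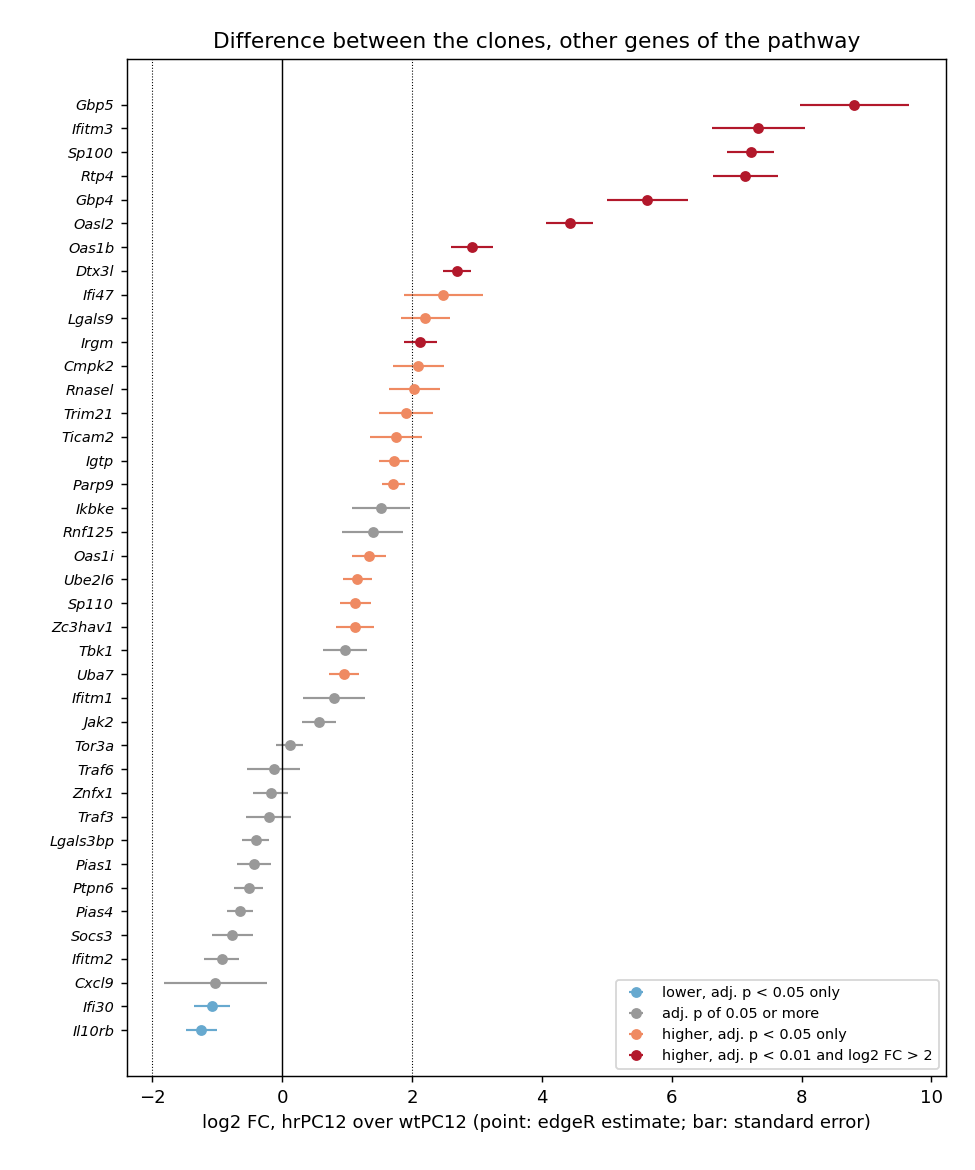
Log2 FC (hrPC12/wtPC12) of 40 of the 41 tested genes of the further list, with the standard error as a bar and dotted lines at −2 and 2. The values run from −1.24 for Il10rb to 8.81 for Gbp5, with 9 genes higher past both thresholds and none lower.

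Within hrPC12 the libraries differed in a subset of the genes. Tlr3, Irf2, Isg15, Rsad2 and Trim25 had 1.94, 1.91, 1.78, 1.53 and 1.62 times as many normalized counts in replicate 1 as in replicate 2. The 10 genes next to each of these on the assembly GRCr8 were higher in the same library, with median ratios of 1.83, 1.77, 1.81, 1.85 and 1.71. In the list, 5 of the 34 tested genes had neighbours with a median log2 ratio over 0.4, beside 13.5% of all tested genes that could be placed. Over all tested genes, 22.9% were over 1.5-fold higher in hrPC12 replicate 1 than in replicate 2. Isg20 and Irf3 were also higher in replicate 1, 1.84 and 1.61 times, but their neighbours were not (0.966 and 1.07). Without hrPC12 replicate 1 the log2 FC of Rsad2 was 2.73 and that of Trim25 0.25, beside the values given above for Tlr3, Isg15 and Irf2. In the same fit it was 0.07 for Isg20 and −0.32 for Irf3. Trim25 also moved with the wtPC12 libraries, to 0.20 without wtPC12 replicate 1 and 1.21 without wtPC12 replicate 2. In the further list Gbp4, Gbp5, Cmpk2, Lgals9, Tbk1 and Rnf125 shared this pattern with their neighbours.

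**Figure D4:**
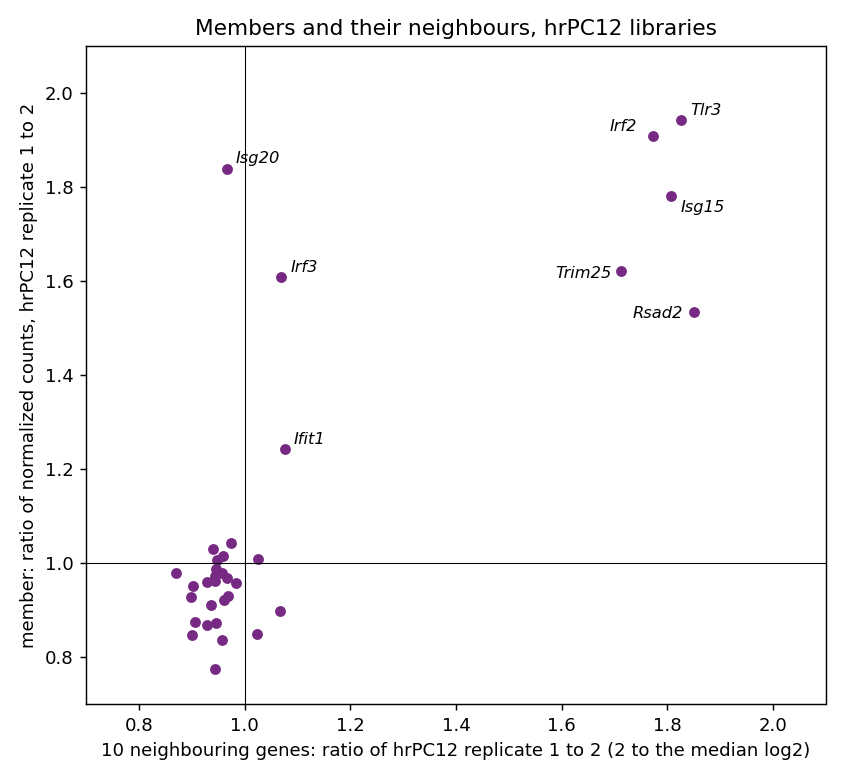
Ratio of normalized counts in hrPC12 replicate 1 to replicate 2 for each of the 34 tested genes of the list (vertical axis) against the same ratio for its 10 neighbouring genes (horizontal axis, from the median log2 ratio). Tlr3, Irf2, Isg15, Rsad2 and Trim25 lie at the upper right, Isg20 and Irf3 are high without their neighbours, and most other genes lie near 1 on both axes.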

How the data were processed

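RNA of 2 wtPC12 and 2 hrPC12 libraries had been sequenced as paired-end reads. Per the submitters' processing notes and the labels, the authors aligned the reads to rn4 with TopHat2 2.0.4 and counted them per gene with HTSeq 0.5.3. The deposited values are raw counts, without normalization, and the annotation is not given in the sources used here. The library preparation does not mark strand, so reads of overlapping antisense genes cannot be told apart. A deposited table of the authors' DESeq comparison (means, fold changes, p values) was not used. Rows for reads outside genes, ambiguous or not uniquely aligned were left out, and 37.9% to 41.3% of the reads in the files were on genes.

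Counts were scaled with TMM factors and tested with edgeR 4.0.16 (quasi-likelihood, legacy option on) in R 4.3.3, in place of DESeq, with Benjamini-Hochberg adjustment over all tested genes. Permuting the 4 libraries over the clones could reach no 2-sided p below 0.333 for any gene alone. Members, roles, the further pathway list, marker lists and thresholds were chosen with earlier results of these data known. Genes with an adjusted p under 0.05 were given in full, the others by their values, and pathway genes past both thresholds were named. Alternatives were RLE factors, library totals, every gene with a read, filterByExpr, DESeq2 1.42.0, the legacy option off, and each library left out. Neighbours were ordered by GRCr8, where 75.8% of tested genes could be placed. Intervals and floors cover counting error only. A pathway gene and a marker are counted but not reported here by name.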

Additional observations from a re-analysis of the deposited data

How the results depend on the processing

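No paired analysis was possible because the labels pair no wtPC12 library with an hrPC12 library. With RLE factors, library totals alone and every gene with a read, all 34 genes kept their direction and their side of an adjusted p of 0.05, and with filterByExpr, DESeq2 and the legacy option off all but Myd88 did. Over these 6 settings 10 to 12 genes rose past both thresholds, against 9 as reported, while the share of all tested genes that did so was 5.25% to 6.57%, against 4.84%. With 1 library left out, where the lone library is assumed to vary like the pair of the other clone, the number that rose past both thresholds ranged from 0 to 12, and in the further pathway list from 0 to 11. The 0 came without wtPC12 replicate 2, where no gene among all 13590 tested passed both. In that fit the median log2 FC was 0.79 over the 34 genes and 0.09 over all tested genes. The number that fell with an adjusted p under 0.05 ranged from 2 to 5, the 2 without hrPC12 replicate 1 and without hrPC12 replicate 2. The direction changed in 4 genes that did not pass the test, with log2 FC from −0.32 to 0.32 for Irf3, −0.21 to 0.66 for Irf8, −0.48 to 0.10 for Adar and −0.18 to 0.33 for Ifi27. The cause was not tested. The median log2 FC of all tested genes moved from 0.06 to between −0.01 and 0.16. Genes under about 5 normalized counts, such as Ifit2 and Ifit3, are limited by depth.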

Other observations

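Gene families related to the list were looked at by name after its values had been seen, and carry no test here. The rat files list 8 genes named Oas1 with a letter. In normalized counts, Oas1f had 194 and 141 in wtPC12 and 1013 and 975 in hrPC12, Oas1h had 4.65 and 4.12 in wtPC12 and 31.3 and 28.3 in hrPC12, and Oas1e had 8.14 and 4.12 in wtPC12 and 22.9 and 19.2 in hrPC12. Oas1d had no read in wtPC12, and 3 and 1 reads in hrPC12. Reads that align to more than 1 of these close relatives were not counted.

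Of the 10 Toll-like receptor genes in the files, Tlr2, Tlr7, Tlr10, Tlr11 and Tlr12 had no read in any library. Besides Tlr3, both hrPC12 libraries lay above wtPC12 in Tlr6, with 1.16 and 3.09 in wtPC12 and 49.1 and 55.7 in hrPC12 (normalized counts), and in Tlr1, with 0 and 0 in wtPC12 and 12.7 and 8.09 in hrPC12. Tlr4 and Tlr5 overlapped between the clones. Genes whose products sense or bind DNA were looked at here only under names that begin with Ifi20. Ifi204 had 0 and 0 in wtPC12 and 79.6 and 76.9 in hrPC12, and Ifi203 had 0 and 1.03 in wtPC12 and 75.3 and 34.4 in hrPC12.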
